A study of Mus musculus with 9 samples.

Results

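Lcn2, C3, Cfb, Pigr, Slpi, Hp, Saa3 and Nos2 form a set of 8 named mucosal defence and acute-phase effector genes, whose transcript levels were followed in a mouse intestinal epithelial cell line before and after endotoxin. The set was given by gene symbol, and each gene was represented by the probe set with the highest mean over all arrays among those annotated to that symbol alone. Of the 8 genes, 7 had such a probe set, with 8 probe sets in all because Pigr had 2. The array held 18193 genes with a probe set of their own. No probe set carried the symbol C3 in the annotation used, so C3 was not analysed here.

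These genes encode secreted and membrane proteins with which an epithelium meets bacteria. Lipocalin 2 (Lcn2) binds iron-loaded bacterial siderophores, complement C3 and factor B (Cfb) form the alternative-pathway convertase, and the polymeric immunoglobulin receptor (Pigr) carries IgA across the epithelium. Secretory leukocyte protease inhibitor (Slpi) inhibits neutrophil serine proteases, haptoglobin (Hp) binds free haemoglobin, serum amyloid A3 (Saa3) is an acute-phase lipoprotein component made outside the liver in mice, and inducible nitric oxide synthase (Nos2) makes nitric oxide. In mice, transcription of many of them is known to depend on NF-kappa-B, on the atypical I-kappa-B protein encoded by Nfkbiz and on C/EBP factors.

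The 9 Affymetrix arrays measured total RNA of m-ICcl2 cells, which derive from C57BL/6 fetal small intestine and carry an SV40 large T antigen transgene, so all groups were the same immortalised line. The 3 conditions had 3 arrays each, labelled as biological replicates. Cells were unstimulated, were given lipopolysaccharide (LPS, from E. coli D31m4) at 100 ng/mL for 6 h, or were given the same 6 h of LPS and then LPS-free medium for 90 h. The last condition is the tolerant one of the series design. The labels state no culture time for the unstimulated cells, so in tolerant cells the effects of culture time and of earlier LPS cannot be told apart. Nothing in the labels says whether replicates came from separate cultures, and p-values then measure the spread between these arrays.

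All levels are given as log2 of the deposited intensity, and log2 4 was the level below which a probe set was treated as lying at the array floor. A gene was tested if it reached log2 4 on at least 3 arrays, which 9431 genes did. Arrays were alike in this respect, with 59.1% to 61.0% of probe sets below log2 4 and medians over the tested genes of 7.62 to 7.84. Replicate 1 stood apart from replicates 2 and 3 in every condition. Across genes, deviations from the condition mean correlated at -0.74 to -0.37 between replicate 1 and the others in other conditions. Between replicates 2 and 3 of different conditions they correlated at 0.21 to 0.73. Such deviations cancel within a condition, so the negative values alone would not set replicate 1 apart. Values from a model that includes the replicate number as a block are therefore given where they change a call.

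The cells carried epithelial transcripts. Of 10 epithelial markers, 7 passed the level minimum, led by the keratin genes Krt8, Krt18 and Krt20, whereas Cdx1, Cdx2 and Cdh1 stayed below log2 4 on all arrays. Of the 7, Epcam passed only through its tolerant arrays, so 6 reached log2 4 in unstimulated cells and 6 at 6 h of LPS. Among 11 macrophage and leukocyte markers, Cd68, Csf1r and Spi1 passed, 6 did not, including Ptprc, Itgam and Adgre1, and 2 had no probe set of their own. The mean of Csf1r in unstimulated cells, 10.79, was above that of the epithelial marker Hnf4a, 9.62. None of 5 fibroblast or 3 endothelial markers reached log2 4, and of 5 hepatocyte markers Ttr passed, 3 did not and 1 had no probe set of its own.

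The members fell into those with a signal and those at the floor. Lcn2, Cfb and Slpi lay above log2 4 on all 9 arrays and were tested. Pigr, Hp, Saa3 and Nos2 lay below log2 4 on all 9 arrays and were not tested, so nothing below is a statement about all members. A probe set at the floor gives no information on whether its transcript was absent, only that it was not measured above background on these arrays.

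**Figure D1:**
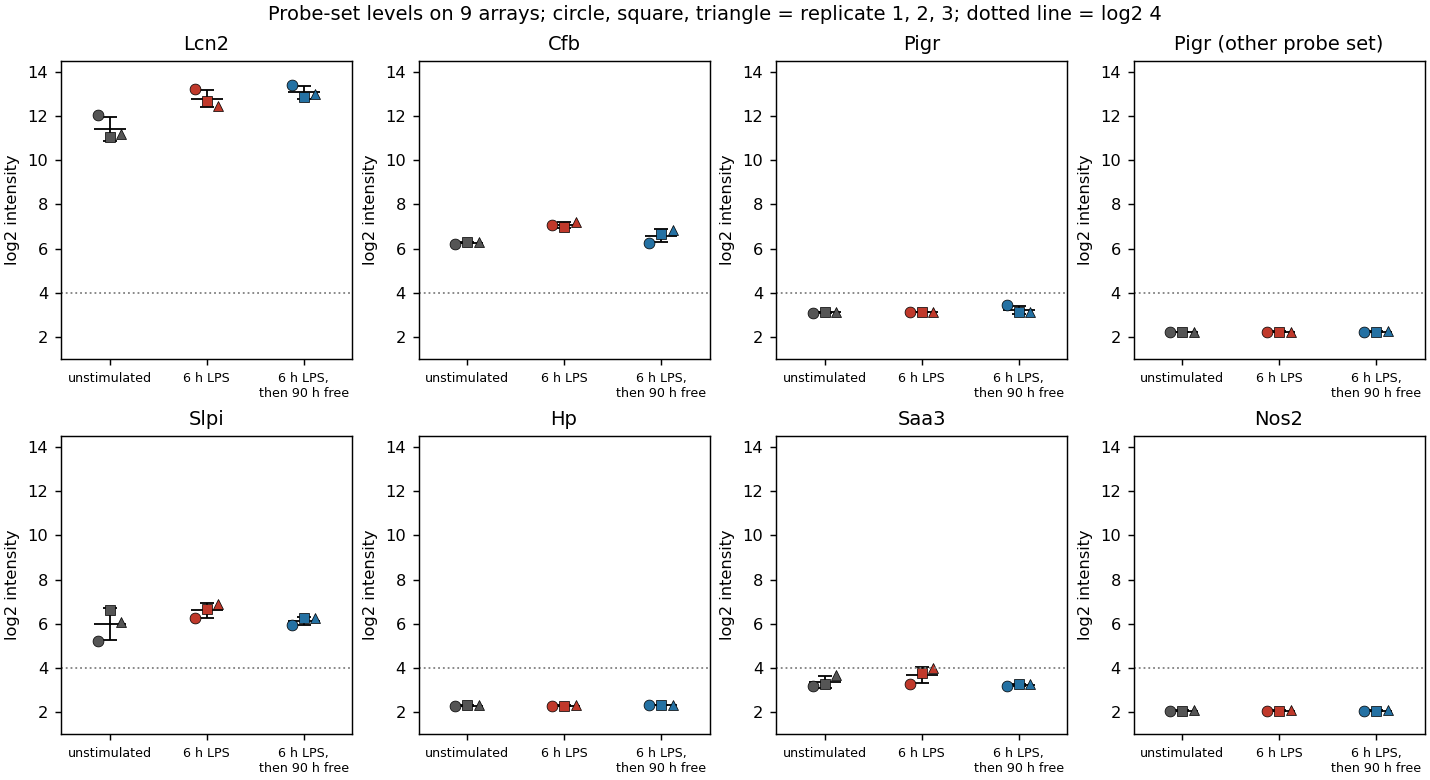
Log2 intensity of the 8 member probe sets on each array, by condition, with the mean and SD of 3 arrays (bars). The dotted line marks log2 4. Lcn2, Cfb and Slpi lie above it throughout, and Pigr, Hp, Saa3 and Nos2 below it throughout.

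Upstream sequence was available from RefSeq (build GRCm38.p6) for Lcn2, Slpi, Saa3 and Pigr among the 7 members with a probe set. The first 3 are printed because they span the observed responses: the member called in a comparison, a tested member with no call, and a member at the floor. Each is the 250 bases before the listed transcription start, 5′ to 3′ on the gene's own strand, and capitals mark matches to the C/EBP motif. Lcn2 is at chr2:32387740-32387989, Slpi at chr2:164356508-164356757 and Saa3 at chr7:46715677-46715926, all on the minus strand. The Lcn2 and Slpi windows end at the outer edge of the gene. Saa3 is listed at chr7:46711998-46719615, so its window lies inside that span, before a start downstream of the gene's outermost one.
Lcn2: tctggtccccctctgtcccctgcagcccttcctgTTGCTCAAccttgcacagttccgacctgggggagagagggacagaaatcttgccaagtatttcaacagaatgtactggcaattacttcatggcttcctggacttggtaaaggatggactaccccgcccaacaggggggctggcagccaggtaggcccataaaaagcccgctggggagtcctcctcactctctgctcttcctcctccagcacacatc
Slpi: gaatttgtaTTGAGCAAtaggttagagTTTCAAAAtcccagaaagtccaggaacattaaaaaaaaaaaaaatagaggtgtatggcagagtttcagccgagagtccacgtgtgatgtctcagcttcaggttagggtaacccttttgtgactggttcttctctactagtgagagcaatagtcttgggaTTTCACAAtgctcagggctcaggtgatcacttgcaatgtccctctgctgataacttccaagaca
Saa3: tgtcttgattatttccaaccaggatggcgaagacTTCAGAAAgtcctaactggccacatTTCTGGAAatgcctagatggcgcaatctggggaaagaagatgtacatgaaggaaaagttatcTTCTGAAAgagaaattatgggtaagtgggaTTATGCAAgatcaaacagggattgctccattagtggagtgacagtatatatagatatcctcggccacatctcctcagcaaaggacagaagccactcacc

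In all, 4 motifs were searched on both strands: C/EBP (TTNNGNAA), STAT (TTCNNNGAA), AP-1 (TGANTCA) and the kappa-B consensus. The C/EBP letters gave 1 match in the Lcn2 window, 3 in that of Slpi, 4 in that of Saa3 and none in that of Pigr. They are common letters, found in 36.8% of 32851 RefSeq windows of the same length. No match to the other motifs lay in these windows. Those motifs occurred in 7.02% of all windows for STAT, 6.75% for AP-1 and 7.25% for kappa-B. A match is a description of letters, and its absence says nothing about a factor or about sequence outside the window.

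Of the 3 tested members, only Lcn2 was called in a comparison by limma without the replicate block. Its levels were 12.06, 11.07 and 11.17 on the unstimulated arrays of replicates 1, 2 and 3. After 6 h of LPS they were 13.23, 12.70 and 12.46, and in tolerant cells 13.40, 12.86 and 12.99. Every LPS-exposed array, at either time, thus read higher than every unstimulated one, and replicate 1 gave the highest value within each condition.

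The first comparison, of 6 h LPS against no stimulation, asked which transcripts the acute stimulus changed. Lcn2 was higher by 1.36 log2, or 2.57-fold (95% interval 0.66 to 2.06 log2), from 11.43 ± 0.54 to 12.79 ± 0.39 (SD, n = 3). In limma's moderated test, adjusted over all 9431 genes, this difference did not pass (adjusted p = 0.115). It passed with the replicate block (adjusted p = 0.0115), from replicates 2 and 3 alone (adjusted p = 0.0473) and without 6 h LPS replicate 3 (adjusted p = 0.0413). The difference was positive in all 3 same-numbered pairs of arrays, at 1.17, 1.63 and 1.29 log2. Of all tested genes, 99.6% had a smaller signed change.

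Cfb showed a smaller difference at 6 h with less spread. Its levels were 6.22, 6.30 and 6.30 on the unstimulated arrays, 7.07, 6.96 and 7.23 at 6 h, and 6.25, 6.64 and 6.86 in tolerant cells. The 6 h arrays lay above all the others, whereas tolerant replicate 1 lay within the unstimulated range. Cfb was 1.75-fold higher at 6 h (0.81 log2, 95% interval 0.40 to 1.22) without passing the test (adjusted p = 0.115), and it passed with the replicate block (adjusted p = 0.0319).

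Slpi did not separate the conditions. It read 5.21, 6.63 and 6.08 on the unstimulated arrays, 6.24, 6.68 and 6.90 at 6 h, and 5.93, 6.25 and 6.25 in tolerant cells, so that all 3 conditions overlapped. Replicate 1 was the lowest in every condition. The difference at 6 h was 0.63 log2 (95% interval -0.13 to 1.40, adjusted p = 0.296, or 0.0605 with the replicate block).

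At 6 h, then, 0 of the 3 tested members were called by limma, where 0.0636% of all tested genes were called, and 2 of 3 had an unadjusted p under 0.05, as did 2163 genes in all. With the replicate block 2 of the 3, Lcn2 and Cfb, were higher, against a background of 24.0% of genes called in either direction and 11.6% called higher. The arrays of Lcn2 and Cfb did not overlap between the conditions, which held upward for 12.9% of tested genes. The median change was 0.81 log2 over the 3 tested members and -0.11 over all tested genes. The latter was -0.16 after quantile normalization, where Lcn2 was higher by 1.39 and Cfb by 0.74 log2.

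**Figure D2:**
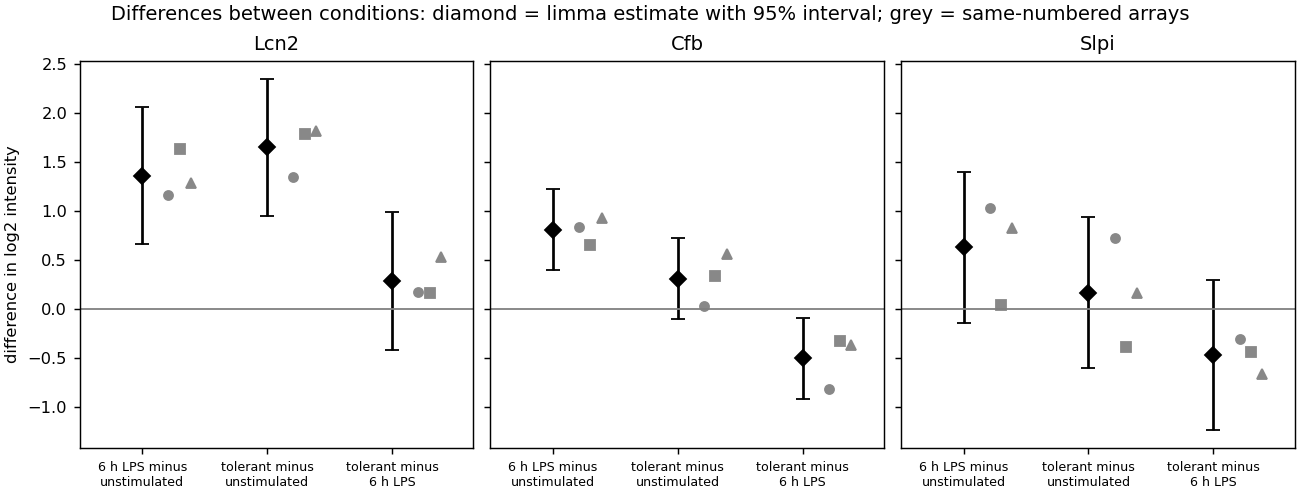
Difference in log2 intensity between conditions for Lcn2, Cfb and Slpi (y axis) in each of the 3 comparisons (x axis). Diamonds are limma estimates with 95% intervals and grey symbols are the differences of same-numbered arrays (circle, square and triangle for replicates 1, 2 and 3). For Lcn2 both intervals against unstimulated cells lie above 0, and for Cfb the interval does so at 6 h only.

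The tolerant condition asked what remained or appeared 90 h after LPS was removed. Lcn2 rose 3.14-fold against unstimulated cells, by 1.65 log2 (95% interval 0.95 to 2.35), to 13.08 ± 0.28 (SD, n = 3; limma adjusted p = 0.00559, or 0.000132 with the replicate block). Every tolerant array lay above every unstimulated one, as was so for 22.6% of tested genes. The same-numbered pairs differed by 1.35, 1.79 and 1.82 log2. Lcn2 passed under all 17 alternative settings, with changes of 1.47 to 1.97 log2 and adjusted p of 0.000132 to 0.0263. Of all tested genes, 97.1% had a smaller signed change.

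Cfb and Slpi did not pass in the same comparison. Cfb differed by 0.31 log2 (95% interval -0.10 to 0.72, adjusted p = 0.245), with pair differences of 0.03, 0.34 and 0.57. Slpi differed by 0.17 log2 (95% interval -0.60 to 0.94, adjusted p = 0.756), and its pairs did not share a sign: replicate 2 differed by -0.39 and replicate 1 by 0.73. Thus 1 of 3 tested members was called, against 26.2% of all tested genes in either direction and 14.0% called higher. With the block it was again 1 of 3, against 48.6% in either direction and 22.7% called higher. The median change was 0.31 log2 over the 3 tested members and -0.07 over all tested genes.

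Markers of cell types moved in the same comparison, and their part in the Lcn2 result was not tested. The summed intensity of the epithelial markers was 25530 to 30130 in tolerant and 19780 to 23570 in unstimulated cells, a sum led by keratin genes. Singly, 4 of the 7 tested rose (Cdh17, Epcam, Krt18 and Krt20) and 1 fell, Hnf4a, by 1.80 log2 (adjusted p = 0.00162), while Krt8 and Vil1 did not pass. Of all tested genes, 26.2% were called in this comparison in either direction and 14.0% were called higher. Epcam had entered the test only through its tolerant arrays, so its call is not independent of the level minimum. The summed intensity of the macrophage and leukocyte markers overlapped, at 1141 to 1473 against 1235 to 2461, but its 3 tested genes moved in opposite directions. Cd68 rose by 4.15 log2 (adjusted p = 5.83e-06), whereas Csf1r fell by 1.95 log2 (adjusted p = 0.0232) and Spi1 fell to below log2 4 on all 3 tolerant arrays (adjusted p = 0.0181). Spi1 had entered the test only through its other arrays, so its call is likewise not independent of the level minimum. Ptprc, Itgam and Adgre1 were below log2 4 on all arrays.

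The third comparison set tolerant cells against those at 6 h of LPS, with the same tolerant and 6 h arrays as above. Lcn2 was 0.29 log2 higher in tolerant cells (95% interval -0.41 to 0.99, adjusted p = 0.615), and the arrays overlapped. The interval therefore leaves room for a fall of 0.41 as well as a further rise of 0.99 log2. Cfb was lower by 1.41-fold, a change of -0.50 log2 (95% interval -0.91 to -0.09), with adjusted p = 0.115, and it passed with the replicate block (adjusted p = 0.0328). All 3 tolerant Cfb arrays lay below all 3 arrays at 6 h, as was so for 15.4% of tested genes. Slpi differed by -0.46 log2 (95% interval -1.23 to 0.30, adjusted p = 0.437).

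None of the 3 tested members was called in that comparison by limma, against 13.1% of tested genes, and 1 had an unadjusted p under 0.05, as did 2516 genes. With the block 1 was called lower, against 31.7% called in either direction and 15.7% called lower. The median change was -0.46 log2 over the 3 tested members and 0.01 over all tested genes. Lcn2 and Cfb thus had point estimates of opposite sign after LPS was removed, and no test compared the 2 genes with each other.

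**Figure D3:**
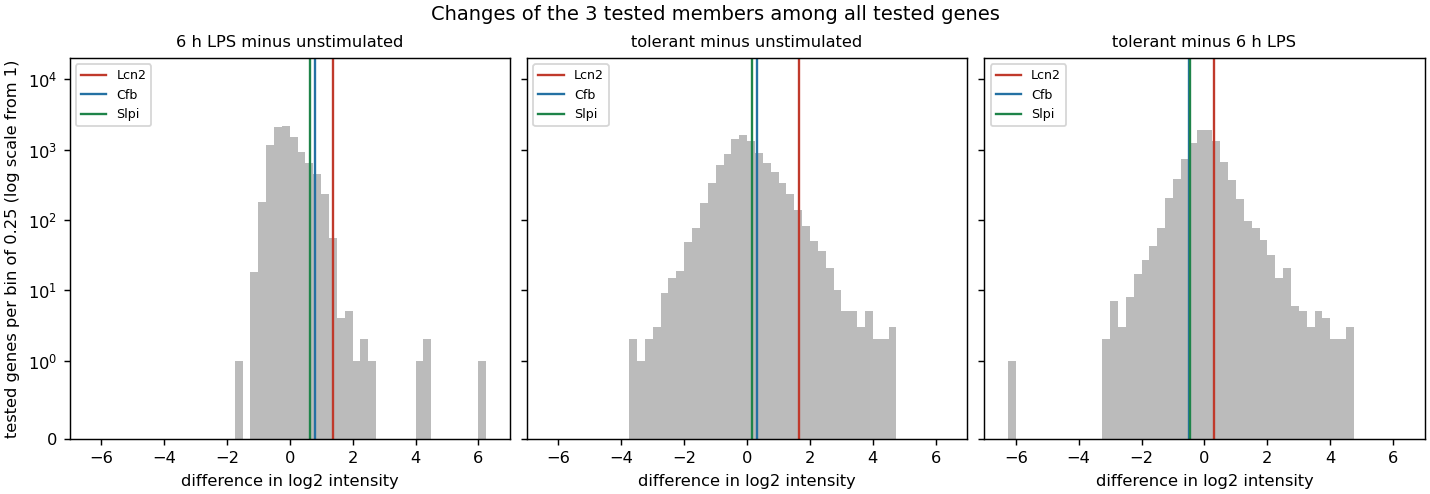
Number of tested genes (y axis, log scale above 1) by difference in log2 intensity (x axis, bins of 0.25) in each comparison, with vertical lines at the values of Lcn2, Cfb and Slpi. Lcn2 lies far to the right in both comparisons with unstimulated cells and near the centre between tolerant and 6 h cells.

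The members at the floor gave narrow ranges. Nos2 lay between 2.05 and 2.07 and Hp between 2.28 and 2.31 on all 9 arrays. Pigr lay between 3.09 and 3.43 on the probe set used and between 2.22 and 2.26 on the other, and its highest value, 3.43, was that of tolerant replicate 1. These values sit in the range where the processing leaves no order, and no difference is read from them.

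Saa3 came closest to the level minimum. It read 3.16, 3.26 and 3.66 on the unstimulated arrays, 3.26, 3.77 and 3.99 at 6 h, and 3.18, 3.25 and 3.26 in tolerant cells. The highest value, at 6 h in replicate 3, was just under log2 4, and the unstimulated and 6 h arrays overlapped. When the level minimum was dropped, so that 18193 genes including all 7 members with a probe set entered the test, Lcn2 in tolerant against unstimulated cells remained the single call among them.

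Clone-like gene symbols were left out of the next ranking, and the 9 arrays it used share conditions and replicate structure. Genes whose pattern was most like that of each tested member were found by Pearson correlation of log2 levels over these arrays. For Lcn2 these were Ccnl2 (r = 0.98), Khdc4 (0.98) and Lratd2 (0.97). For Cfb they were Smad5 (0.94), Slc25a53 (0.93) and the chemokine gene Cxcl1 (0.92). For Slpi they were Rbm6, Cd44 and Dhx40 (0.94 each). Among themselves, Lcn2 and Cfb correlated at 0.47, Cfb and Slpi at 0.64, and Lcn2 and Slpi at -0.03 over these arrays.

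Other genes of the same processes were examined as lists, beginning with the receptors and transcription factors that act upstream of the members. Of 14 listed, 11 were tested. At 6 h 1 rose, Nfkbiz, to 10.86 ± 0.22 from 8.54 ± 0.42 (SD, n = 3; limma adjusted p = 0.00621), and with the block 4 did, the others being Cebpd (adjusted p = 0.00244), Irf1 and Ifngr2, beside 0.0636% of all tested genes called without the block and 24.0% with it. The probe sets of Nfkbiz differed in size of change, from 0.40 to 2.601 log2. Cebpd, which encodes C/EBP delta, read 5.67, 5.07 and 5.21 on unstimulated arrays and 8.02, 6.95 and 7.12 at 6 h, a difference of 2.04 log2 that missed the threshold without the block (adjusted p = 0.0700). In tolerant cells its arrays read 5.41, 4.73 and 5.34, which overlapped the unstimulated range.

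Against 6 h, Cebpd fell by 2.20 log2 (adjusted p = 0.00267) and Nfkbiz by 1.68 log2 (adjusted p = 0.00228) in tolerant cells, while Ifngr1, a subunit of the interferon-gamma receptor, rose by 1.36 log2. The change of Nfkbiz ranged from -1.87 to -0.23 log2 over its 3 probe sets. Over that list the counts were 1 higher and 2 lower of 11, and 2 and 5 with the block, beside 13.1% and 31.7% of all tested genes called. Against unstimulated cells, Ifngr1 rose by 1.37 log2 and Stat3 fell by 0.68 log2 (adjusted p = 0.0476, with -0.22 on its other probe set), which made 1 higher and 1 lower of 11, and 4 and 2 with the block, beside 26.2% and 48.6% of all tested genes. The medians of the list were 0.04 at 6 h, -0.13 for tolerant against unstimulated and -0.25 for tolerant against 6 h. Side by side, every tolerant array read above the unstimulated range for Lcn2 and Nfkbiz, as was so for 22.6% of tested genes, and within or below that range for Cebpd. Nfkbiz was 0.64 log2 higher in tolerant than in unstimulated cells (limma adjusted p = 0.0738, or 0.0329 with the block), with 0.16 to 0.73 log2 over its 3 probe sets. Cebpb was 0.87 log2 higher with overlapping arrays (adjusted p = 0.390, or 0.000977 with the block). Both were among the 4 called higher with the block, beside 2 called lower.

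**Figure D4:**
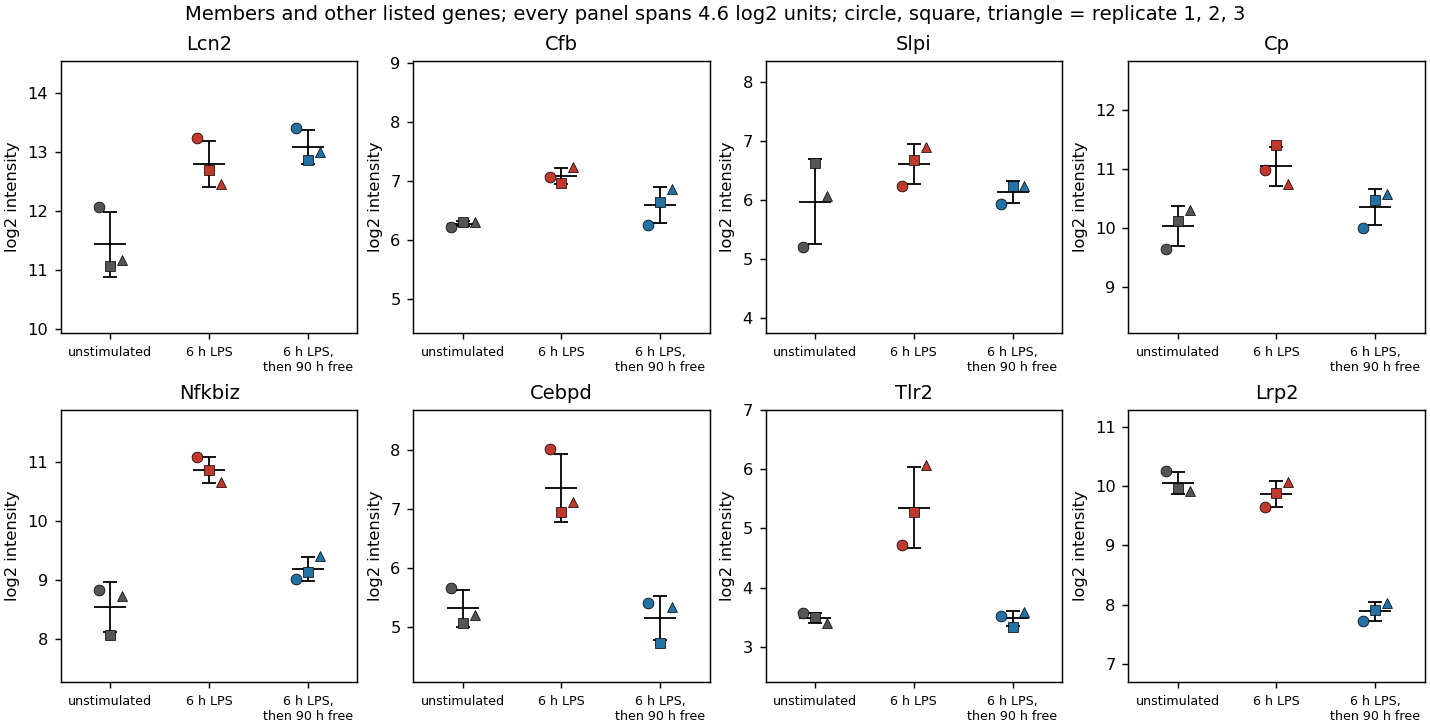
Log2 intensity of Lcn2, Cfb, Slpi and of Cp, Nfkbiz, Cebpd, Tlr2 and Lrp2 on each array by condition, with mean and SD of 3 arrays (bars) and equal spans on all y axes. Nfkbiz, Cebpd and Tlr2 are highest at 6 h, Lrp2 is lowest in tolerant cells, and Lcn2 is high in both LPS-exposed conditions.

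Of 31 listed complement components and regulators besides the members, 8 were tested, 19 lay below the minimum, among them C2, C1qa and Cd55, and 4 had no probe set of their own. At 6 h none was called, and with the block 1 was higher and 3 lower (median -0.25), beside 24.0% of all tested genes called with the block. In tolerant against unstimulated cells 1 rose and 1 fell, or 2 and 4 with the block (median -0.53), beside 26.2% and 48.6% of all tested genes. Clu, whose product clusterin inhibits the terminal complement complex, rose by 1.36 log2 to 12.38 ± 0.44 (SD, n = 3; adjusted p = 0.0243), with 1.32 to 1.55 log2 over its 4 probe sets.

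Cfi, the gene of complement factor I, which cleaves C3b, was the lower call in tolerant against unstimulated cells (limma adjusted p = 0.0231). It lay below log2 4 on all 3 tolerant and 2 of 3 unstimulated arrays. Cfi entered the test only through its unstimulated and 6 h arrays, so its calls are conditioned on the level minimum and are not read as results. Since its unstimulated mean was itself 3.92, no fold is given. Between tolerant and 6 h cells Clu rose by 1.59 log2 and Masp1, a lectin-pathway protease gene, by 1.503 log2. The calls were 2 higher and 2 lower of 8 (median -0.53), or 2 and 3 with the block, beside 13.1% and 31.7% of all tested genes. The lower calls were Cfi and Cfp, the gene of properdin, which stabilises the convertase that contains factor B. Cfp lay below log2 4 on every unstimulated and tolerant array and entered the test only through its 6 h arrays, so its call follows from the level minimum and is not read as a result. Its levels were 4.41 ± 0.22 at 6 h, 3.86 ± 0.08 in unstimulated and 3.59 ± 0.07 in tolerant cells (SD, n = 3).

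Among 21 other acute-phase genes, 5 were tested and 15 lay below the minimum, including Saa1, Saa2 and Hpx. None was called at 6 h. Itih3, an inter-alpha-trypsin inhibitor chain gene, fell by 0.72 log2 in tolerant against unstimulated cells (adjusted p = 0.0242), and it was the single call without the block in that comparison, with none between tolerant and 6 h cells. Of all tested genes, 0.0636% were called without the block at 6 h, 26.2% in tolerant against unstimulated cells and 13.1% between tolerant and 6 h cells. With the block 1 was higher and 1 lower at 6 h, 2 were lower in tolerant against unstimulated cells and 2 lower against 6 h. These shares of 5 genes are near those of all tested genes called with the block, which were 24.0%, 48.6% and 31.7%. The medians were 0.25, -0.35 and -0.32 log2.

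Cp, the gene of ceruloplasmin, a copper-carrying ferroxidase, was singled out after its values were seen because it is the acute-phase gene called higher at 6 h with the block. It read 9.64, 10.12 and 10.31 on unstimulated arrays, 10.97, 11.40 and 10.74 at 6 h and between 9.996 and 10.57 in tolerant cells. The 6 h arrays lay above all the others. Against the unstimulated arrays alone, this held for 12.9% of tested genes. The difference at 6 h was 1.01 log2 (adjusted p = 0.115, or 0.0319 with the block), with 0.64 to 1.20 log2 over its 7 probe sets.

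Mucosal antimicrobial, mucin and oxidase genes were mostly at the floor: of 27 listed, 23 lay below the minimum, including Reg3b, Reg3g, Lyz1, S100a8, S100a9 and Duoxa2. The single tested gene was Muc4, which encodes a membrane mucin. It rose in tolerant cells, to 6.40 ± 0.64 (SD, n = 3), against unstimulated (adjusted p = 0.00125) and against 6 h cells (adjusted p = 0.00169). The means of those conditions, 3.89 and 3.84, were below log2 4, with 1 of 3 unstimulated and 2 of 3 arrays at 6 h below it, so no fold is given. Beside it, 26.2% of all tested genes were called against unstimulated and 13.1% against 6 h cells, or 48.6% and 31.7% with the block. The call of this single gene is not read as a result about the list.

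Nos2 itself was at the floor, and the genes around it were measured in part: of 9 nitric oxide and arginine genes 5 were tested. None was called at 6 h, and 1, Asl, was lower with the block, beside 24.0% of all tested genes called with it. In tolerant against unstimulated cells 2 rose and 1 fell of 5, also with the block (median -0.27), beside 26.2% of all tested genes called without the block and 48.6% with it. Gch1, which encodes the first enzyme of synthesis of the nitric oxide synthase cofactor tetrahydrobiopterin, rose by 3.06 log2 (adjusted p = 0.00328), with 1 of 3 unstimulated arrays below log2 4. Arg2, the gene of mitochondrial arginase, rose by 2.13 log2 to 12.01 ± 0.06 (SD, n = 3), and Asl, the gene of argininosuccinate lyase, fell by 0.90 log2 (adjusted p = 0.00713). Against 6 h, Gch1 and Arg2 rose by 3.20 and 2.16 log2, again 2 of 5 with and without the block (median 0.19), beside 31.7% and 13.1% of all tested genes.

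Of 9 receptors and partners of the members' products, 2 were tested. Lrp2, the gene of megalin, an endocytic receptor that binds lipocalin 2, read 10.26, 9.98 and 9.93 on unstimulated arrays, 9.64, 9.89 and 10.07 at 6 h, and 7.72, 7.90 and 8.03 in tolerant cells. The tolerant arrays thus lay below all others. Against the 6 h arrays alone, this held for 15.4% of tested genes. Lrp2 fell by 2.17 log2 against unstimulated cells and fell by 1.99 log2 against 6 h cells. At 6 h, where the Lcn2 arrays also lay above the unstimulated ones, Lrp2 differed from unstimulated cells by -0.19 log2 (limma adjusted p = 0.551). Its arrays overlapped there. Tlr2, a receptor gene whose product recognises bacterial lipoproteins and serum amyloid A, was below log2 4 on every unstimulated and tolerant array and entered the test only through its 6 h arrays. Its 6 h arrays read 4.72, 5.28 and 6.07, and its other arrays 3.34 to 3.58. Tests of this gene are conditioned on its 6 h level and are not read as results, although it counts among the calls of the list. These were 2 of 2 lower between tolerant and 6 h cells, beside 13.1% of all tested genes called without the block and 31.7% with it. For tolerant against unstimulated cells 1 of 2 was lower, beside 26.2% and 48.6%. The other lipocalin 2 receptor listed, Slc22a17, lay below log2 4 on all arrays.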

How the data were processed

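The 9 deposited columns hold linear intensity, summarised per probe set. Per the submitters' processing notes the authors used GCRMA, of a version not given in the sources used here. That method corrects background by probe sequence and equalises arrays, which leaves unexpressed probe sets close to a common floor. In R 4.3.3, values were turned into log2 with no pseudocount. Of 45101 probe sets, 34945 carried 1 gene symbol, 932 several and 9160 no listed gene; 64 were controls. Symbols were updated through gene identifiers to RefSeq. limma 3.58.1 fitted a mean per condition over all 9 arrays (lmFit, eBayes, 6 residual degrees of freedom before moderation), with two-sided tests and Benjamini-Hochberg adjustment over 9431 genes within each comparison at 0.05. Intervals are limma's. Members and lists were chosen with earlier results of these data known. Named were all members, at most 4 called genes per list and comparison, and the 3 most correlated genes per tested member, clone-like symbols left out. Cp, and genes named with the block only or as examples below the minimum, were chosen after their values were seen.

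Replicate numbers come from the titles, which do not say what a number shares. Deviations of same-numbered arrays correlated at 0.157 to 0.844 in every pair, which met the rule for pairing (above 0.1), but arrays of replicates 2 and 3 correlated at 0.214 to 0.731 across numbers, so a replicate 1 that stands apart cannot be told from pairing. The model was tested on simulated data of 9431 genes. For 6 h LPS against unstimulated it recovered 29 of 100 genes set to change 2-fold and 86 of 100 set to change 4-fold. These were 37 and 82 for tolerant against unstimulated, and 48 and 85 for tolerant against 6 h. False calls made up 1.71%, 7.75% and 2.21% of calls in these 3 simulations. That of tolerant against unstimulated was above the nominal 5%, but each comparison was simulated only once, so the rate itself is not established. Noise was drawn independently for each gene and array, so the simulations lacked the replicate structure of these arrays and cannot show how it affects the calls. Alternatives covered the filter, probe sets, normalization, a floor, eBayes settings, separate fits, the replicate block, replicates 2 and 3, and each array left out. The number of arrays limits the precision.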

Additional observations from a re-analysis of the deposited data

How the results depend on the processing

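The sign of every called member change held under all alternatives. Of 153 recomputed member changes, 148 kept their side of the threshold and 5 passed where they had not: Lcn2 at 6 h with the replicate block, from replicates 2 and 3 and without 6 h LPS replicate 3, and Cfb at 6 h and between tolerant and 6 h cells with the block. Slpi in tolerant against unstimulated cells, never called, ranged from -0.21 to 0.50 log2. With the replicate block the members called became 2 at 6 h, 1 for tolerant against unstimulated (as without it) and 1 for tolerant against 6 h, and from replicates 2 and 3 there was 1 at 6 h. With arrays left out in turn they were 0 to 1, 1 to 1 and 0 to 0.

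Counts over all genes moved more. At 6 h, 6 genes became 2267 with the block, 37 with no filter and 14 with probe sets averaged. The 2470 genes of tolerant against unstimulated became 4586 with the block, and the 1238 of tolerant against 6 h became 2985 with it and 2126 from replicates 2 and 3. With arrays left out in turn the counts were 5 to 696, 1400 to 2908 and 677 to 1282; the 696 came without 6 h LPS replicate 3. The causes were not tested. The background correction could not be redone from these values, and no slide or scan batch was used here. Probe sets below log2 4 limit what is known of Pigr, Hp, Saa3 and Nos2.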
